A study of Mus musculus with 24 samples.

Results

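Immediate early response genes are transcribed within minutes of a stimulus without the need for new protein synthesis. A list of 36 such genes was followed through the day in the distal tubule of the mouse kidney, and all 36 of the 36 listed genes were measured among 18194 genes in all. Where a gene had several probe sets of 1 symbol, the one brightest on average across the 24 arrays was read. The list was not chosen on a difference in these values, but it was taken up with earlier results from the same arrays known.

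The arrays carried RNA of tubules microdissected from left kidneys of male C57BL/6J mice weighing 25 to 30 g, after collagenase treatment of the kidney. The mice had adapted for 2 weeks to a cycle of 12 h light and 12 h dark, and the labels name no other treatment. One set of 12 arrays held the distal convoluted tubule with the connecting tubule (DCT/CNT), and a set of 12 held the cortical collecting duct (CCD). Each segment was sampled at zeitgeber times ZT0, ZT4, ZT8, ZT12, ZT16 and ZT20, counted in hours from lights on, with 2 pools per segment and time. RNA of 5 animals per time was combined in equal amounts, and 10 ng went into each amplification. It is not stated in the labels whether the 2 pools of a time held the same animals, nor whether both segments came from the same animals, so that p-values measure the spread between these pools only. 

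The segment labels were checked against marker genes. Slc12a3, the sodium chloride cotransporter of the distal convoluted tubule, had a median log2 value of 11.35 in DCT/CNT (8.48 to 12.09 over 12 arrays), against 5.33 in CCD. Aqp2, the water channel of principal cells, had a median of 7.96 in DCT/CNT and 10.26 in CCD. Umod, a product of the thick ascending limb, had a median of 11.29 in DCT/CNT and 10.12 in CCD. In pooled tubules, a lower value from fewer cells of a type and one from less RNA per cell cannot be told apart. Values are log2 intensities after robust multi-array averaging (RMA), and a difference of 1 on this scale is a doubling.

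Immediate early genes sit at the receiving end of the MAP kinase, calcium and cyclic AMP pathways, whose kinases act on the promoter-bound factors SRF, ELK and CREB. The products include the transcription factors of the AP-1, EGR, NR4A and KLF families, together with phosphatases, mRNA decay factors and signalling inhibitors that switch the response off again. In the distal nephron such genes respond to hormones, osmolality and salt load, and in any tissue they also respond to handling and to enzymatic dissociation. The part of tissue handling in the values below was not tested.

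Promoters are shown for the members called in both segments in at least 1 of the time tests described below, with all arrays in the fit. Their CCD calls depended on single arrays, as given below. Fosb, Jun, Egr2, Nr4a1, Klf10 and Ier2 met that criterion, and a promoter was at hand for Fosb, Jun, Egr2 and Nr4a1. The sequences are from RefSeq (GRCm38.p6) and give the 250 bases before the most upstream transcription start listed, 5′ to 3′ on the strand of the gene. They lie at chr15:101266596-101266845 on the plus strand for Nr4a1, at chr7:19310046-19310295 on the minus strand for Fosb, at chr4:95052223-95052472 on the minus strand for Jun and at chr10:67535249-67535498 on the plus strand for Egr2. Capitals mark matches, on either strand, to the core of the cyclic AMP response element, TGACG, and to the EGR site, GCGNGGGCG.
Nr4a1: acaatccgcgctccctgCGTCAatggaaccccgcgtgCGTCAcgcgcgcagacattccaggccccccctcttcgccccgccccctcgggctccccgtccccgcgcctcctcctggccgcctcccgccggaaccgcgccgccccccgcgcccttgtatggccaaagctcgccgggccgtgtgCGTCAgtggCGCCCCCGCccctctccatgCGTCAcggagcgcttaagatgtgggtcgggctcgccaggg
Fosb: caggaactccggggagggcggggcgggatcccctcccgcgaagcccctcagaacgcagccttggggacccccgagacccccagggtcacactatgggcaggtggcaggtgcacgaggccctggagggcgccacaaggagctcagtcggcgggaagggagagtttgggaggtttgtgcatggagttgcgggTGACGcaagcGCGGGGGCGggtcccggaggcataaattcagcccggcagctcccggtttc
Jun: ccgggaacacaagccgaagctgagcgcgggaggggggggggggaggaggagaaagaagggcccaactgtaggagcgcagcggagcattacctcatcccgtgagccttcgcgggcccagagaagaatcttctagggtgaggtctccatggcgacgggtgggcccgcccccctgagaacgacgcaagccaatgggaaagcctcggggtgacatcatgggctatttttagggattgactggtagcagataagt
Egr2: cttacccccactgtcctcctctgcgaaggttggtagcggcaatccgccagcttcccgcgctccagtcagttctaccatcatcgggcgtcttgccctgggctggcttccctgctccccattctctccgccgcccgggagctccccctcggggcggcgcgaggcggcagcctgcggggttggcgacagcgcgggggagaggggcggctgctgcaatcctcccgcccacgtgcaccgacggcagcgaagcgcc

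The Nr4a1 window held 4 cores and 1 EGR site, and the Fosb window held 1 of each. Over the whole table of 27025 promoters, 17.8% held at least 1 core and 4.63% held an EGR site. Of the 29 members with a promoter in that table, 13 held the core (44.8%), among them Fos, Junb, Atf3, Klf4, Dusp1 and Nr4a3, and 11 held the EGR site (37.9%). The full cyclic AMP element TGACGTCA, which contains the core, was in the windows of Btg2 and Dusp1 (6.9% of the members, against 1.6% of all promoters). The CArG box, the site of SRF, was in those of Dusp5 and Zfp36 (6.9%, against 1.41%), and the AP-1 site TGANTCA was in that of Zfp36l1 (3.45%, against 6.85%). No match was in the Jun or Egr2 window, which says only that these letters are not there. Matches are a description of sequence and not of binding.

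In DCT/CNT, many of these genes were at their highest around the middle of the light phase, when mice rest. A 24 h cosine curve fitted with limma was called rhythmic, at an adjusted p under 0.05, for 10 of the 36 members (27.8%), against 6.57% of all genes. Of these, 9 had a fitted peak between ZT0 and ZT12 (25%, against 3.77% of all genes called with such a peak), and their peaks lay between ZT3.3 and ZT8.0. Gadd45a was the exception, with a peak at ZT20.3. In CCD, 7 members were called (19.4%, against 2.47% of all genes), 6 of them with peaks from ZT2.6 to ZT4.2 (16.7%, against 1.32%) and Myc with a peak at ZT19.0. The amplitude is how far the fitted curve rises above its own mean, and its median was 0.22 over the 36 members in DCT/CNT (0.13 over all genes) and 0.22 in CCD (0.10 over all genes). Called or not, the fitted peak lay between ZT2 and ZT8 for 22 members in DCT/CNT (61.1%, against 24.3% of all genes) and for 23 in CCD (63.9%, against 28.3%).

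**Figure D1:**
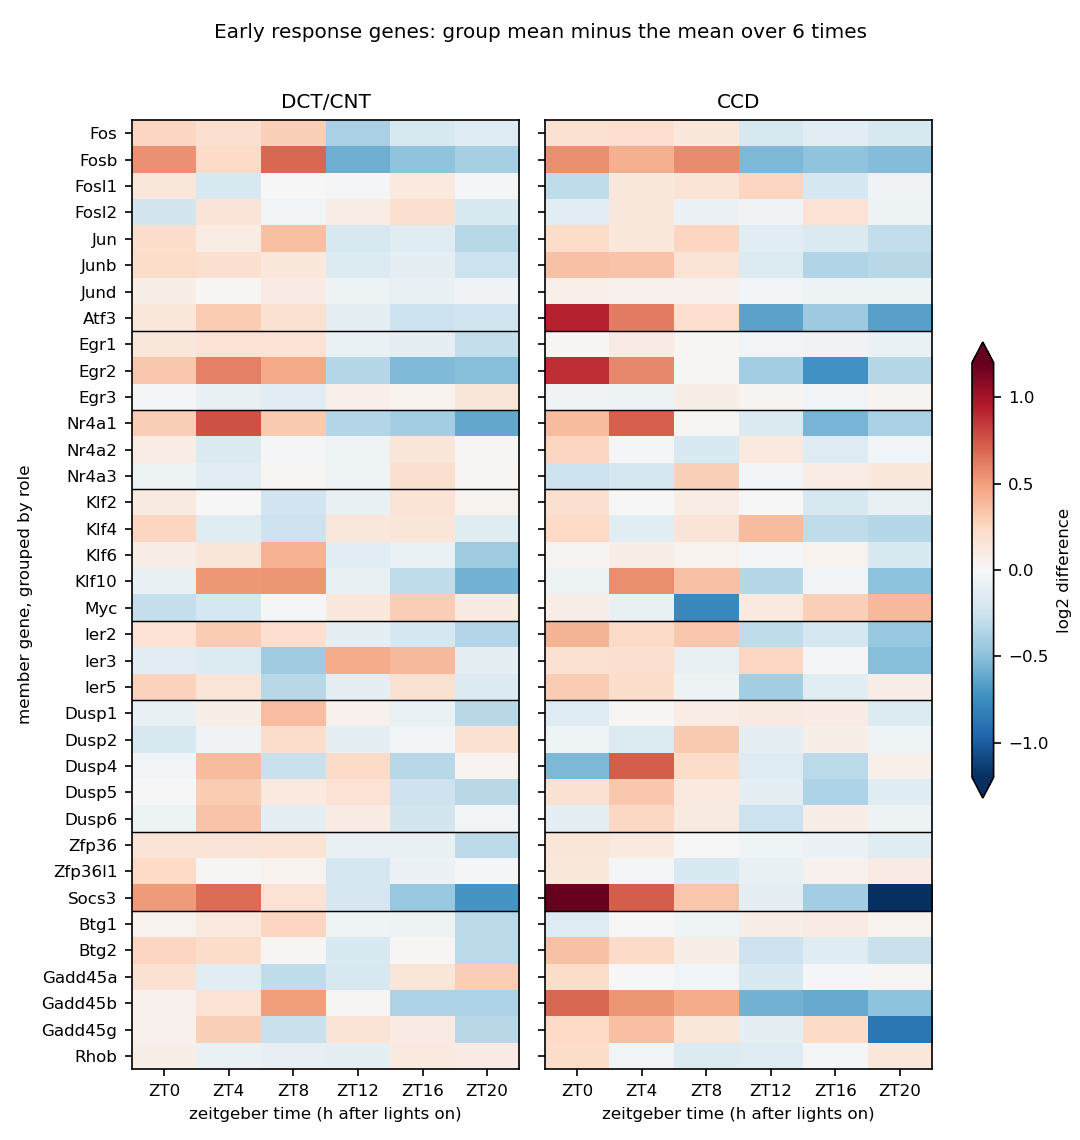
Group means of the 36 members at 6 zeitgeber times in DCT/CNT (left) and CCD (right), each as the log2 difference from the gene's own mean over the 6 times in that segment, with lines between groups of like role and colours past the ends of the scale drawn as the end colour. Nr4a1, Fosb, Egr2 and Ier2 are red at ZT0 and ZT4 and blue at ZT16 and ZT20 in both segments. At ZT8 they are red too, except Nr4a1 and Egr2 in CCD, which are close to their own means. Myc in CCD is deepest blue at ZT8 and red at ZT16 and ZT20.

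A direct comparison of the light phase (ZT4 and ZT8, 4 arrays) with the dark phase (ZT16 and ZT20, 4 arrays) gave 11 called members in DCT/CNT, all higher in light (30.6%, against 4.25% of all genes called in either direction and 2.65% called higher in light). No member was called lower in light in DCT/CNT (0 by limma, against 1.59% of all genes). In CCD 7 were called (19.4%, against 1.59%), of which 6 were higher in light (16.7%, against 0.868%) and Myc was lower (2.78%, against 0.726%). Called or not, the difference was above 0 for 25 members in DCT/CNT (69.4%, against 43.6% of all genes) and for 28 in CCD (77.8%, against 54.2%). The median difference, light minus dark, was 0.26 over the 36 members in DCT/CNT (-0.03 over all genes) and 0.23 in CCD (0.02 over all genes). Leaving out CCD ZT4 pool 2, the CCD median was 0.13 (0.02 over all genes) and 24 members were above 0 (66.7%, against 54.7% of all genes), with Klf6, Ier3, Ier5 and Dusp1 turning below 0. With these 6 times this difference is proportional to the sine term of the 24 h curve, so the 2 tests are not independent of each other. In all, 16 members were called in at least 1 of the 4 time tests and 20 in none, while 1620 of 18194 genes were called in at least 1.

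The counts depended on single times and arrays. Of the 6 fits that left out 1 time, DCT/CNT rhythm was lost in 1 for Nr4a1 and 3 each for Klf10 and Fos. It was lost in 4 each for Egr1, Klf6 and Dusp1, and in 5 each for Fosb, Egr2, Btg1 and Gadd45a. CCD rhythm was lost in 2 for Nr4a1, 3 for Myc, 4 for Egr2 and 6 each for Fosb, Junb, Atf3 and Ier2. With DCT/CNT fitted alone, Fos and Egr1 were not called rhythmic. Of the 24 fits that left out 1 array, rhythm in DCT/CNT was lost in 0 for Nr4a1, Klf10, Egr1 and Fos, in 3 for Gadd45a, in 4 each for Egr2 and Dusp1, in 6 for Btg1, in 9 for Fosb and in 15 for Klf6. Rhythm in CCD was lost in 1 for Nr4a1, in 2 each for Junb and Egr2, in 3 for Myc, in 10 for Ier2, in 15 for Fosb and in 20 for Atf3. The DCT/CNT light minus dark call was lost in 0 for Klf10, Nr4a1 and Egr1, in 1 for Jun, in 5 each for Fosb, Klf6 and Btg1, in 6 for Ier2, in 13 for Fos, in 14 for Egr2 and in 18 for Zfp36. The CCD light minus dark call was lost in 0 for Myc, in 5 for Ier2, in 6 each for Fosb and Nr4a1, in 7 for Jun, in 9 for Klf10 and in 16 for Junb. Among rhythmic members, DCT/CNT had 4 without ZT8 pool 2, and 6 without ZT4 pool 1, ZT8 pool 1, ZT16 pool 2, ZT20 pool 1 or ZT20 pool 2. CCD had 1 rhythmic member, Myc, without ZT4 pool 2, and 2 without ZT16 pool 1, 3 without ZT8 pool 1, ZT8 pool 2 or ZT20 pool 2, and 4 without ZT0 pool 1, ZT0 pool 2, ZT12 pool 1, ZT12 pool 2 or ZT20 pool 1. In the comparison of light and dark, DCT/CNT had 3 called without ZT16 pool 2, 4 without ZT4 pool 1, 5 without ZT4 pool 2, ZT8 pool 1 or ZT20 pool 1, and 7 without ZT16 pool 1. CCD had 1 called without ZT4 pool 2, ZT8 pool 1, ZT16 pool 1 or ZT20 pool 1, 2 without ZT20 pool 2, and 4 without ZT8 pool 2 or ZT16 pool 2.

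One pair of pools, that of CCD at ZT4, stood furthest apart for these genes. Smaller shifts, pool 2 minus pool 1, were seen at ZT0 and ZT8. Member medians there were 0.18 and -0.13 in DCT/CNT (-0.009 and 0.041 over all genes). In CCD they were 0.14 and -0.17 (-0.005 and 0.020 over all genes). In the remaining groups they lay from -0.06 to 0.05. In CCD at ZT4, pool 2 exceeded pool 1 for 32 of 36 members, by a median of 0.45, while the median of all genes was -0.009 and 48% of all genes were higher in pool 2. Of the members, 7 were higher by more than 1 in pool 2 (19.4%, against 0.451% of all genes), and Socs3, the feedback inhibitor of cytokine receptors, differed by 3.52, the largest excess of pool 2 among the 18194 genes. Atf3 differed by 1.92, Gadd45b by 1.73, Ier3 by 1.53, Egr2 by 1.34, Ier5 by 1.26 and Gadd45g by 1.24. Dusp4, Dusp2, Egr3 and Nr4a3 were not higher in pool 2 (-0.90, -0.22, -0.06 and -0.01). The mean over the 36 members was 9.32 in pool 1 and 9.91 in pool 2. The CCD means at ZT0 (9.50 and 9.71) and ZT8 (9.57 and 9.42) lay between these. Which pool of ZT4 was the unusual one is not settled by these values. With pool 1 left out instead of pool 2, the CCD light minus dark calls of Nr4a1 and Klf10 were lost. The other CCD calls of members were kept. Proximal tubule markers averaged 0.60 higher and thick ascending limb markers 0.55 higher in pool 2, principal cell markers -0.12 and leukocyte markers 0.04, and the part of these tubules in the difference was not tested. The CCD values of members below are therefore also given without this array, under which CCD calls over all genes numbered 320 for rhythm and 92 for light minus dark, against 449 and 290 with it.

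**Figure D2:**
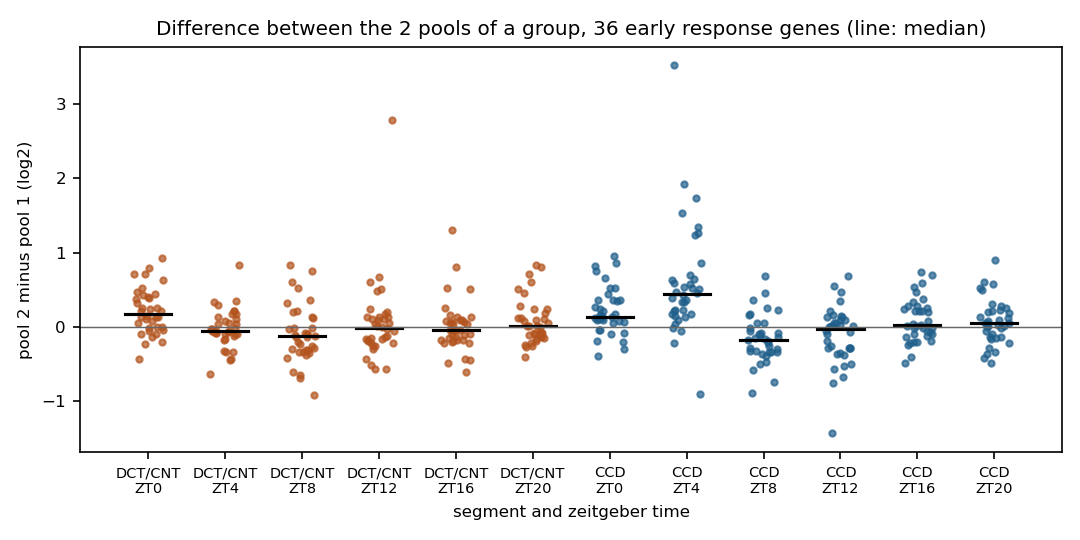
Log2 difference between the 2 pools (pool 2 minus pool 1) of each segment and time, with 1 point per member and a line at the median of the 36 members. CCD at ZT4 has the largest median, 0.45, with Socs3 at 3.52, and in DCT/CNT at ZT12 Socs3 alone differs by more than 1, at 2.79.

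Nr4a1, an orphan nuclear receptor induced by cyclic AMP and calcium, had the largest called amplitude in DCT/CNT. Its values in DCT/CNT, pool 1 and pool 2, were 7.96 and 8.74 at ZT0, 8.98 and 8.65 at ZT4, 8.68 and 8.07 at ZT8, 7.66 and 7.74 at ZT12, 7.72 and 7.54 at ZT16, and 7.43 and 7.45 at ZT20. In CCD they were 9.40 and 9.76 at ZT0, 9.82 and 10.00 at ZT4, 9.51 and 8.93 at ZT8, 9.15 and 8.88 at ZT12, 8.45 and 8.83 at ZT16, and 8.89 and 8.74 at ZT20. Every array of ZT4 and ZT8 exceeded every array of ZT16 and ZT20 in both segments. In DCT/CNT the curve had an amplitude of 0.66 ± 0.11 (SE), a 2.51-fold swing from trough to peak, and a peak at ZT4.5 (adjusted p = 0.00247). Light minus dark was 1.06 ± 0.18 there, 2.09-fold (adjusted p = 0.00581). In CCD the amplitude was 0.59 ± 0.11 with a peak at ZT3.7 (adjusted p = 0.012), and light minus dark was 0.84 ± 0.18 (adjusted p = 0.033). Without CCD ZT4 pool 2 these were 0.54 (adjusted p = 0.0518) and 0.80 (adjusted p = 0.122), so neither CCD call was kept.

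The other NR4A receptors were called in no time test. In DCT/CNT Nr4a3 stood at 5.80 ± 0.09 in light and 5.97 ± 0.11 in darkness (SD, n = 4 arrays each), and Nr4a2 stood at 6.51 ± 0.11 in light and 6.68 ± 0.09 in darkness.

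Among the AP-1 proteins, which bind DNA as pairs of a Jun and a Fos or ATF member, Fosb had the largest change called in both segments. Fosb had values in DCT/CNT of 10.17 and 11.10 at ZT0, 10.48 and 10.15 at ZT4, 10.90 and 10.66 at ZT8, 9.76 and 9.25 at ZT12, 9.82 and 9.40 at ZT16, and 9.39 and 9.99 at ZT20. In CCD Fosb had 10.72 and 10.88 at ZT0, 10.41 and 10.92 at ZT4, 10.98 and 10.65 at ZT8, 9.80 and 9.61 at ZT12, 9.64 and 9.88 at ZT16, and 9.44 and 10.02 at ZT20. In either segment the 6 arrays of ZT0 to ZT8 all lay above the 6 arrays of ZT12 to ZT20. Its amplitude was 0.61 ± 0.15 in DCT/CNT (2.31-fold, adjusted p = 0.0411) and 0.67 ± 0.15 in CCD (2.51-fold, adjusted p = 0.0443), with peaks at ZT3.9 and ZT4.0. Light minus dark was 0.90 ± 0.21 in DCT/CNT (adjusted p = 0.0299) and 0.99 ± 0.21 in CCD (adjusted p = 0.0327). The CCD values without ZT4 pool 2 were 0.66 (adjusted p = 0.102) and 0.87 (adjusted p = 0.137).

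Jun, the main partner of the Fos proteins, had 12.41, 12.35, 12.69 and 12.60 in light and 12.22, 12.05, 11.90 and 12.02 in darkness in DCT/CNT. In CCD Jun had 12.77, 13.16, 13.12 and 13.06 in light and 12.69, 12.62, 12.48 and 12.60 in darkness. The light arrays all exceeded the dark arrays. The ZT0 arrays, at 12.37 and 12.62 in DCT/CNT and 12.99 and 13.10 in CCD, also lay above the ZT12 arrays, at 12.21 and 12.00 in DCT/CNT and 12.63 and 12.77 in CCD. The difference was 0.46 ± 0.09 in DCT/CNT (1.38-fold, adjusted p = 0.0139) and 0.43 ± 0.09 in CCD (1.34-fold, adjusted p = 0.0348). The CCD value without ZT4 pool 2 was 0.33 (adjusted p = 0.147). As a 24 h curve, Jun in DCT/CNT narrowly missed the threshold (amplitude 0.27, adjusted p = 0.0504). Its further probe set gave 0.48 in DCT/CNT (adjusted p = 0.0476) and 0.36 in CCD (adjusted p = 0.23).

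Fos itself was called in DCT/CNT. It had 12.46, 12.43, 12.68 and 12.40 in light and 12.13, 12.00, 12.10 and 12.10 in darkness, without overlap, and 12.32 and 12.71 at ZT0 and 11.90 and 11.85 at ZT12. Its amplitude was 0.31 ± 0.07 with a peak at ZT3.3 (adjusted p = 0.0193), and light minus dark was 0.41 ± 0.10, 1.33-fold (adjusted p = 0.0387). In CCD Fos had 12.88, 13.21, 13.11 and 12.85 in light and 12.68, 12.76, 12.65 and 12.67 in darkness, again without overlap, with a difference of 0.32 (adjusted p = 0.161), or 0.24 without CCD ZT4 pool 2 (adjusted p = 0.451).

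Junb and Atf3 were called in CCD. Junb, which forms weaker AP-1 pairs than Jun, had 8.17, 8.76, 8.35 and 8.22 in light and 7.48, 8.07, 7.78 and 7.83 in darkness in CCD. All light arrays lay above the dark arrays. Junb had 8.53 and 8.44 at ZT0 and 8.11 and 7.83 at ZT12. The fit gave an amplitude of 0.40 ± 0.08 (adjusted p = 0.0181) and a difference of 0.59 ± 0.14 (1.5-fold, adjusted p = 0.041). Without CCD ZT4 pool 2 these were 0.35 (adjusted p = 0.077) and 0.44 (adjusted p = 0.176). In DCT/CNT Junb was at 7.18 ± 0.08 in light and 6.84 ± 0.14 in darkness (SD, n = 4 arrays each), a difference of 0.34 that was not called (adjusted p = 0.157). Atf3, a stress-induced factor of the ATF family, had CCD values of 9.54 and 10.07 at ZT0, 8.53 and 10.44 at ZT4, 9.24 and 8.92 at ZT8, 8.57 and 7.90 at ZT12, 8.20 and 8.67 at ZT16, and 8.22 and 8.24 at ZT20. The ZT4 pools lay at opposite ends of the range of the light arrays. Its amplitude was 0.78 ± 0.18 (2.95-fold, adjusted p = 0.0476), and 0.61 (adjusted p = 0.181) without CCD ZT4 pool 2. The call was also lost in each of the 6 fits that left out 1 time, as were the CCD rhythm calls of Junb, Fosb and Ier2. Fosl1, Fosl2 and Jund were called in no time test.

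**Figure D3:**
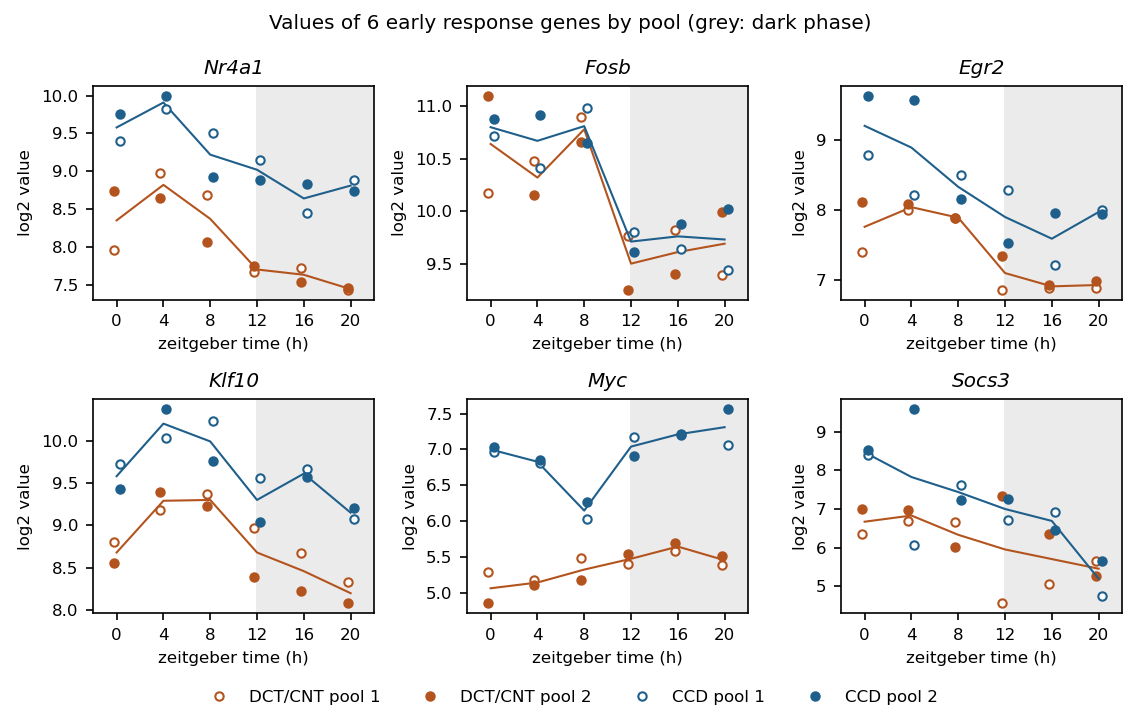
Log2 values of Nr4a1, Fosb, Egr2, Klf10, Myc and Socs3 at 6 zeitgeber times, with DCT/CNT in brown and CCD in blue, open circles for pool 1, filled circles for pool 2, lines through the means and grey for the dark phase. Nr4a1, Fosb, Egr2 and Klf10 are higher at ZT4 and ZT8 than at ZT16 and ZT20, Myc in CCD is lowest at ZT8, and the Socs3 pools lie far apart at ZT4 in CCD and at ZT12 in DCT/CNT.

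Of the EGR zinc-finger factors, Egr2 moved in both segments. In DCT/CNT Egr2 had 7.40 and 8.11 at ZT0, 8.0 and 8.08 at ZT4, 7.89 and 7.88 at ZT8, 6.86 and 7.35 at ZT12, 6.89 and 6.93 at ZT16, and 6.88 and 6.99 at ZT20. In CCD it had 8.78 and 9.63 at ZT0, 8.22 and 9.57 at ZT4, 8.50 and 8.16 at ZT8, 8.28 and 7.53 at ZT12, 7.22 and 7.96 at ZT16, and 8.0 and 7.94 at ZT20. The light arrays of ZT4 and ZT8 were above the dark arrays of ZT16 and ZT20 in both segments, and the gap in CCD was narrow. The amplitude was 0.65 ± 0.15 in DCT/CNT (2.46-fold, peak ZT4.5, adjusted p = 0.0278) and 0.76 ± 0.15 in CCD (2.88-fold, peak ZT2.6, adjusted p = 0.0185). Light minus dark was 1.04 ± 0.28 in DCT/CNT (2.05-fold, adjusted p = 0.0466) and 0.83 in CCD (adjusted p = 0.177). Without CCD ZT4 pool 2 the CCD amplitude was 0.65 (adjusted p = 0.07) and the CCD difference 0.50 (adjusted p = 0.518). A further probe set of Egr2 gave amplitudes of 0.85 in DCT/CNT (adjusted p = 0.0191) and 0.80 in CCD (adjusted p = 0.0494).

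Egr1, which shares the DNA site of Egr2, had 12.79, 12.83, 12.88 and 12.74 in light and 12.50, 12.56, 12.43 and 12.28 in darkness in DCT/CNT, with 12.66 and 12.90 at ZT0 and 12.54 and 12.58 at ZT12. The light and dark ranges did not overlap, and the difference was 0.37 ± 0.07, 1.29-fold (adjusted p = 0.0139). Its amplitude there was 0.22 ± 0.04 with a peak at ZT5.2 (adjusted p = 0.0151). In CCD Egr1 stood at 13.53 ± 0.09 in light and 13.41 ± 0.06 in darkness (SD, n = 4 arrays each), a difference of 0.12 (adjusted p = 0.556), or 0.09 without CCD ZT4 pool 2. Egr3 was called in no time test.

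Klf10, a Krüppel-like repressor also known as a TGF-beta inducible early gene, had the smallest adjusted p of all members for light minus dark in DCT/CNT. Klf10 in DCT/CNT had 8.80 and 8.56 at ZT0, 9.18 and 9.39 at ZT4, 9.37 and 9.23 at ZT8, 8.97 and 8.39 at ZT12, 8.68 and 8.23 at ZT16, and 8.33 and 8.08 at ZT20. In CCD it had 9.72 and 9.43 at ZT0, 10.03 and 10.37 at ZT4, 10.23 and 9.76 at ZT8, 9.56 and 9.04 at ZT12, 9.66 and 9.57 at ZT16, and 9.08 and 9.21 at ZT20. Light exceeded darkness on every array of both segments. The difference was 0.96 ± 0.16 in DCT/CNT (1.95-fold, adjusted p = 0.00498) and 0.72 ± 0.16 in CCD (1.64-fold, adjusted p = 0.0379). In CCD it was 0.63 (adjusted p = 0.156) without CCD ZT4 pool 2. The curve in DCT/CNT peaked at ZT6.3 with an amplitude of 0.56 ± 0.11 (adjusted p = 0.00908), and that in CCD missed the threshold (0.42, adjusted p = 0.0885, and 0.35, adjusted p = 0.259, without CCD ZT4 pool 2).

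Klf6, another factor of this family, had 11.07, 10.99, 11.40 and 11.20 in light and 10.86, 10.75, 10.45 and 10.46 in darkness in DCT/CNT, with 10.80 and 11.12 at ZT0 and 10.74 and 10.75 at ZT12. The light arrays lay above, by 0.54 ± 0.13 (1.45-fold, adjusted p = 0.0266). Its amplitude was 0.31 ± 0.08 (adjusted p = 0.0432). Klf6 is measured by 5 probe sets, which gave differences from 0.54 to 0.82 in DCT/CNT, all called when every probe set was fitted (adjusted p from 0.00889 to 0.033). In CCD Klf6 stood at 11.80 ± 0.26 in light and 11.66 ± 0.15 in darkness (SD, n = 4 arrays each), and none of its probe sets was called. That difference of 0.14 turned to -0.02 without CCD ZT4 pool 2. Klf2 and Klf4 were called in no time test.

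Myc, the growth regulator, moved the opposite way and only its CCD change was called. In CCD Myc had 6.96 and 7.03 at ZT0, 6.81 and 6.85 at ZT4, 6.04 and 6.27 at ZT8, 7.17 and 6.91 at ZT12, 7.22 and 7.2 at ZT16, and 7.06 and 7.56 at ZT20. In DCT/CNT it had 5.29 and 4.86 at ZT0, 5.18 and 5.12 at ZT4, 5.49 and 5.18 at ZT8, 5.41 and 5.54 at ZT12, 5.59 and 5.70 at ZT16, and 5.40 and 5.52 at ZT20. The low point in CCD was ZT8, and every light array was below every dark array there. Light minus dark in CCD was -0.77 ± 0.12, a ratio of 0.586 (adjusted p = 0.0042), and the amplitude was 0.46 ± 0.08 (adjusted p = 0.012). Without CCD ZT4 pool 2 these were -0.78 ± 0.14 (adjusted p = 0.0203) and 0.50 (adjusted p = 0.0107). In DCT/CNT the difference was -0.31 (adjusted p = 0.141).

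**Figure D4:**
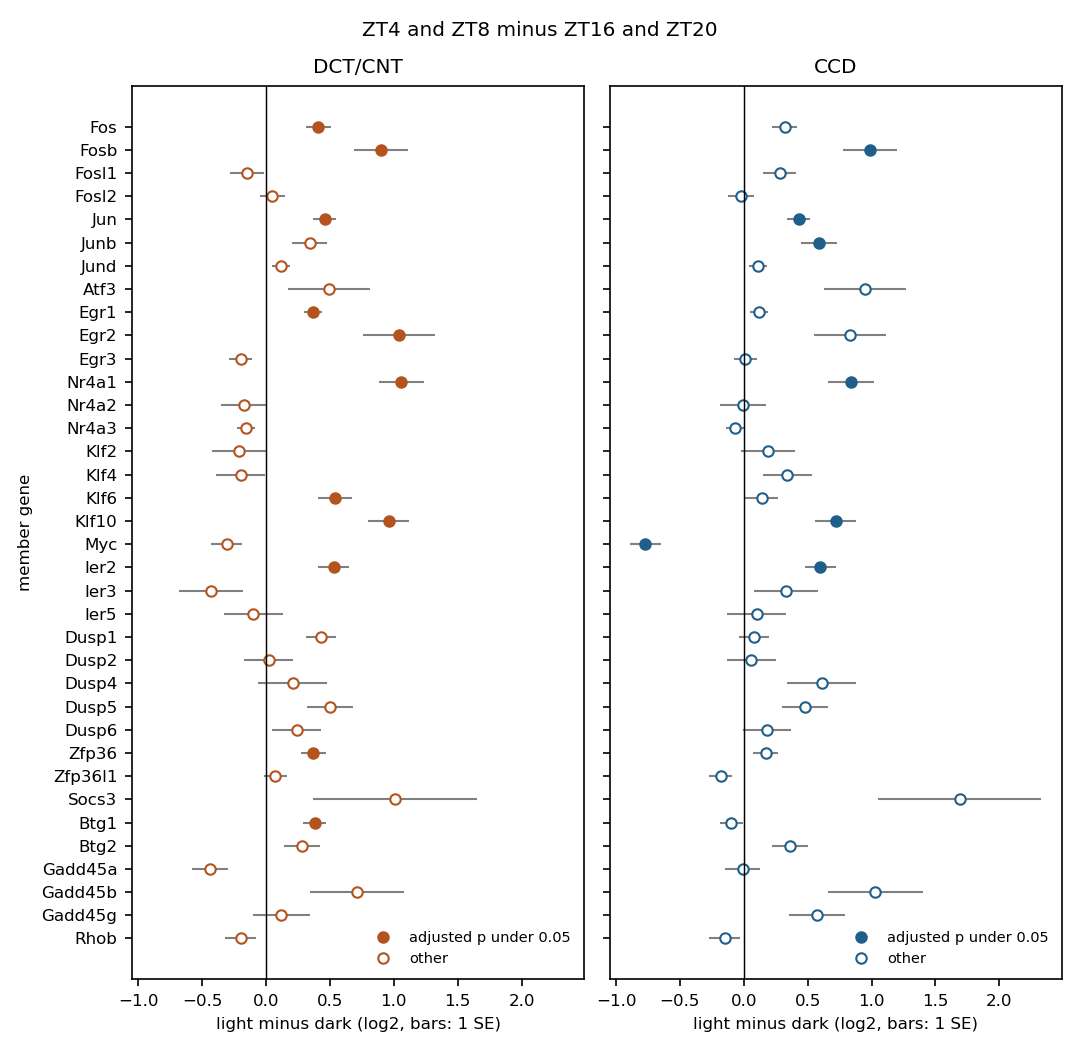
Difference of ZT4 and ZT8 from ZT16 and ZT20 (light minus dark, log2) for each of the 36 members in DCT/CNT (left) and CCD (right), with bars of 1 standard error and filled points for adjusted p under 0.05. In DCT/CNT 11 points are filled, all right of 0, and in CCD 6 are filled right of 0 and Myc left of 0.

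Ier2, a nuclear protein without a known DNA-binding domain that is induced together with Fos, was called in both segments for light minus dark. In DCT/CNT Ier2 had 9.64, 9.58, 9.66 and 9.37 in light and 9.05, 9.15, 8.73 and 9.19 in darkness. In CCD it had 10.72, 11.16, 11.21 and 10.86 in light and 10.40, 10.60, 10.23 and 10.29 in darkness. No light and dark ranges overlapped. Ier2 had 9.40 and 9.55 at ZT0 and 9.07 and 9.31 at ZT12 in DCT/CNT, and 11.08 and 11.16 at ZT0 and 10.33 and 10.49 at ZT12 in CCD. The difference was 0.53 ± 0.12 in DCT/CNT (1.45-fold, adjusted p = 0.027) and 0.60 ± 0.12 in CCD (1.52-fold, adjusted p = 0.0265). The CCD amplitude was 0.39 ± 0.09 (adjusted p = 0.0365). The CCD values without ZT4 pool 2 were 0.50 (adjusted p = 0.117) for the difference and 0.38 (adjusted p = 0.0993) for the amplitude. Ier3 and Ier5 were called in no time test, and in CCD their differences of 0.33 and 0.10 turned to -0.05 and -0.22 without CCD ZT4 pool 2.

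Among the genes that end the response, Dusp1, a nuclear phosphatase of the MAP kinases, was called rhythmic in DCT/CNT. Its DCT/CNT values were 11.17 and 11.58 at ZT0, 11.59 and 11.50 at ZT4, 11.90 and 11.79 at ZT8, 11.65 and 11.39 at ZT12, 11.48 and 11.29 at ZT16, and 11.20 and 11.08 at ZT20. The highest arrays were those of ZT8, and the fitted peak of ZT8.0 was the latest among the called light-phase members. The amplitude was 0.29 ± 0.07 (1.49-fold, adjusted p = 0.0276), and light minus dark was 0.43 (adjusted p = 0.0612). In CCD Dusp1 stood at 11.79 ± 0.23 in light and 11.71 ± 0.21 in darkness (SD, n = 4 arrays each), a difference of 0.08 that turned to -0.05 without CCD ZT4 pool 2. The phosphatases Dusp2, Dusp4, Dusp5 and Dusp6 were called in no time test, although all 4 light arrays of Dusp5 exceeded all 4 dark arrays in both segments, by 0.50 in DCT/CNT (adjusted p = 0.118) and 0.48 in CCD (adjusted p = 0.237, and 0.34 without CCD ZT4 pool 2).

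Zfp36, which binds AU-rich elements and hastens the decay of cytokine and early gene mRNAs, had 12.52, 12.69, 12.79 and 12.44 in light and 12.31, 12.39, 12.27 and 11.99 in darkness in DCT/CNT, with 12.51 and 12.72 at ZT0 and 12.37 and 12.34 at ZT12. The light arrays were above the dark arrays by 0.37 ± 0.10 (1.29-fold, adjusted p = 0.0448). In CCD the difference was 0.17 (adjusted p = 0.523), or 0.11 without CCD ZT4 pool 2. Its relative Zfp36l1 was not called. Socs3 had the largest light minus dark difference of all members in CCD, 1.69 ± 0.64, and was not called (adjusted p = 0.247). Its CCD values were 8.39 and 8.54 at ZT0, 6.07 and 9.59 at ZT4, 7.63 and 7.24 at ZT8, 6.72 and 7.27 at ZT12, 6.93 and 6.45 at ZT16, and 4.75 and 5.64 at ZT20. The pools of ZT4 were further apart than those of any other CCD time, and the difference was 0.81 without CCD ZT4 pool 2.

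Of the growth-arrest genes, Btg1, which restrains proliferation, had 11.40, 11.33, 11.45 and 11.57 in light and 11.29, 11.09, 10.79 and 11.07 in darkness in DCT/CNT, with 11.30 and 11.28 at ZT0 and 11.12 and 11.28 at ZT12. The light arrays lay above, by 0.38 ± 0.09 (1.30-fold, adjusted p = 0.0245), with an amplitude of 0.22 ± 0.05 (adjusted p = 0.0335). In CCD the difference was -0.10 (adjusted p = 0.714), or -0.14 without CCD ZT4 pool 2. The further probe sets of Btg1 gave 0.24 (adjusted p = 0.152) and 0.47 (adjusted p = 0.125) in DCT/CNT and were not called. Gadd45a, a stress-response partner of cell-cycle and MAP kinase proteins, ran the other way in DCT/CNT, with 10.20, 10.41, 10.27 and 10.02 in light and 10.68, 10.50, 10.62 and 10.86 in darkness, and with 10.57 and 10.66 at ZT0 and 10.34 and 10.17 at ZT12. All light arrays were below the dark arrays. Its amplitude was 0.31 ± 0.07 with a peak at ZT20.3 (adjusted p = 0.0293), and light minus dark was -0.44 (adjusted p = 0.0878). Btg2, Gadd45b, Gadd45g and Rhob were called in no time test. Gadd45b had 1.03 in CCD (adjusted p = 0.224), and 0.60 without CCD ZT4 pool 2.

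The 20 members called in no time test had amplitudes from 0.03 (Dusp2) to 0.65 (Socs3) in DCT/CNT and from 0.04 (Fosl2) to 1.02 (Socs3) in CCD. Their light minus dark differences ran from -0.43 (Ier3) to 1.01 (Socs3) in DCT/CNT, 11 of them above 0, and from -0.18 (Zfp36l1) to 1.69 (Socs3) in CCD, 15 of them above 0. Over all 36 members, light and dark arrays did not overlap, with light above, for 14 in DCT/CNT (38.9%, against 4.39% of all genes) and for 9 in CCD (25%, against 6%). Darkness was above for Gadd45a and Rhob in DCT/CNT (5.56%, against 5.55%) and for Myc in CCD (2.78%, against 4.46%).

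The segments were not shown to differ in their daily course. The test of the difference between the DCT/CNT and CCD curves called 0 of 36 members with limma, against 0.011% of all genes, which is 2 genes. At an unadjusted p under 0.05 limma's test named Btg1 (adjusted p = 0.421) and Myc (adjusted p = 0.441), 5.56% of the members against 8.89% of all genes. Fosb, Egr2 and Nr4a1 were called rhythmic in both segments (8.33%, against 1.3% of all genes). Members called in 1 segment and not in the other, such as Klf6, Egr1 or Junb, are therefore not shown to differ between segments.

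Levels of many members were lower in DCT/CNT than in CCD. The difference, DCT/CNT minus CCD, was tested after a constant set the median gene's difference to 0. It was called for 26 of 36 members (72.2%, against 77.2% of all genes), 20 lower in DCT/CNT (55.6%, against 38.7%) and 6 higher (16.7%, against 38.5%). Under quantile normalisation 19 were called lower (52.8%, against 32.5% of all genes) and 8 higher (22.2%, against 32.2%), with Rhob, lower in the main comparison, turning to 0.123. The median over members was -0.47. Differences depended on level over all genes, with medians of -0.33 for genes of mean log2 value 8 to 10, -0.26 above 10, -0.12 from 6 to 8 and 0.36 from 5 to 6. The members were mostly bright, with 14 above 10, 8 from 8 to 10, 10 from 6 to 8 and 4 from 5 to 6. Over all genes, 7004 were called higher and 7043 lower relative to the median gene, while the deposited values without the constant gave 5522 higher and 8553 lower.

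Ier5, an early gene induced by growth factors and heat, had the largest negative difference. It ranged from 6.86 to 7.73 in DCT/CNT (median 7.50) and from 8.52 to 10.00 in CCD (median 9.11), without overlap of the 12 and 12 arrays, a difference of -1.63 ± 0.13 (adjusted p = 2.16e-08). Its further probe sets gave 0.02 and 0.00 and were not called, so the probe sets disagree. Dusp5, a nuclear phosphatase specific for ERK, ranged from 6.72 to 7.72 in DCT/CNT (median 7.07) and from 8.24 to 9.37 in CCD (median 8.68), a difference of -1.53 ± 0.10 (adjusted p = 2.81e-09). Myc ranged from 4.86 to 5.70 in DCT/CNT (median 5.40) and from 6.04 to 7.56 in CCD (median 7.0), a difference of -1.44 ± 0.07 (adjusted p = 7.82e-11). The arrays of Dusp5 and Myc did not overlap between segments, and Myc was 2.72-fold higher in CCD. In DCT/CNT all Myc values lay below the array medians (5.80 to 5.89), and how far they stood above background was not tested.

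Ier2 ranged from 8.73 to 9.66 in DCT/CNT (median 9.34) and from 10.23 to 11.21 in CCD (median 10.66), a difference of -1.28 ± 0.07 (adjusted p = 3.92e-10). Zfp36l1, an mRNA decay factor, ranged from 10.43 to 10.90 in DCT/CNT (median 10.61) and from 11.68 to 12.16 in CCD (median 11.99), a difference of -1.21 ± 0.05 (adjusted p = 2.01e-11). Its further probe set gave -1.14. Under quantile normalisation the differences of Ier5, Dusp5, Myc, Ier2 and Zfp36l1 were -1.37, -1.30, -1.58, -0.95 and -0.97, so the direction of these 5 was kept. Without overlap of the 12 and 12 arrays, DCT/CNT was lower for 11 members (30.6%, against 19.4% of all genes), among them Egr1, Junb, Zfp36, Klf6 and Btg1.

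Among the members higher in DCT/CNT, Jund, at 0.12, turned to -0.003 without the constant. Dusp2, a phosphatase best known from immune cells, ranged from 5.68 to 6.61 in DCT/CNT (median 6.00) and from 4.90 to 5.91 in CCD (median 5.38), a difference of 0.80 ± 0.11 (adjusted p = 7.01e-06). Dusp4, an ERK and JNK phosphatase, ranged from 5.61 to 6.73 in DCT/CNT (median 6.36) and from 4.75 to 6.80 in CCD (median 5.64), a difference of 0.79 ± 0.16 (adjusted p = 0.000251). Nr4a3 ranged from 5.72 to 6.07 in DCT/CNT (median 5.84) and from 4.90 to 5.65 in CCD (median 5.29), a difference of 0.70 ± 0.04 (adjusted p = 3.37e-10). Nr4a3 was the member whose DCT/CNT arrays all lay above its CCD arrays (2.78%, against 8.43% of all genes), and of its further probe sets 1 gave 0.39, called, and 1 gave 0.21, not called. Klf4, a factor of epithelial differentiation, ranged from 7.31 to 8.31 in DCT/CNT (median 7.85) and from 7.05 to 8.24 in CCD (median 7.73), a difference of 0.38 ± 0.11 (adjusted p = 0.00535). Egr3 ranged from 6.49 to 6.99 in DCT/CNT (median 6.83) and from 6.57 to 6.89 in CCD (median 6.70), a difference of 0.22 ± 0.05 (adjusted p = 0.00215). Klf4 and Egr3 overlapped widely between segments. Without the constant Egr3 was at 0.09 and no longer called (adjusted p = 0.146). Under quantile normalisation Nr4a3 was at 0.42 and Klf4 at 0.62. Without CCD ZT4 pool 2 the 10 members with these largest differences each way kept their calls, with Ier5 at -1.53 and Klf4 at 0.46, and Ier3 was also called, at 0.25 (adjusted p = 0.0265). The probe sets of Nr4a2 disagreed, at 0.93 and 0.35 higher and -0.57 lower in DCT/CNT.

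**Figure D5:**
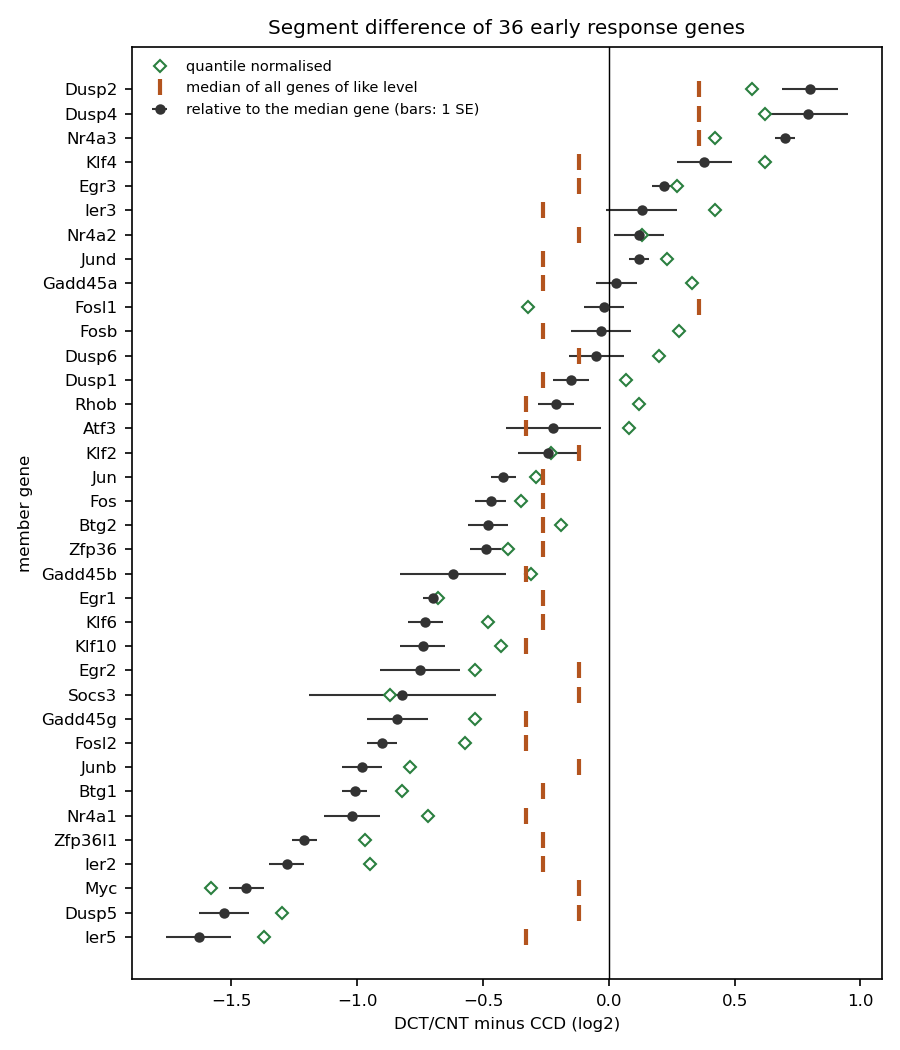
Difference of DCT/CNT from CCD (log2) for the 36 members, relative to the median gene with bars of 1 standard error (black), after quantile normalisation (green diamonds) and beside the median of all genes of like level (brown ticks). Ier5, Dusp5, Myc, Ier2 and Zfp36l1 lie furthest below 0, and Dusp2, Dusp4 and Nr4a3 furthest above.

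The pathway upstream of these genes was read from lists that were likewise chosen with earlier results known. Of 24 kinases, calcium and cyclic AMP signalling genes, 16 were measured, and 0 were called by limma in any of the 4 time tests, with unadjusted p under 0.05 for 4 and 2 in rhythm (DCT/CNT and CCD) and for 2 and 2 in light minus dark. Of the SRF and CREB factors, 14 of 15 were measured, and 2 were rhythmic in DCT/CNT (14.3%, against 6.57% of all genes). These were Srf, the factor that binds the CArG box, with an amplitude of 0.23 and a peak at ZT5.3 (adjusted p = 0.0135), and its partner Elk4 with 0.21 and ZT7.1 (adjusted p = 0.0427). Srf was also higher in light in DCT/CNT, by 0.39 (adjusted p = 0.022), and no gene of that list was called in CCD.

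Early response genes outside the 36 gave 34 measured of 36 listed. In DCT/CNT 4 were rhythmic (11.8%, against 6.57% of all genes), all with light-phase peaks, namely Id3 (amplitude 0.48, adjusted p = 0.00187), Hbegf (0.47, adjusted p = 0.00671), Pim3 (0.25, adjusted p = 0.0126) and Ccn1 (0.57, adjusted p = 0.0157). In CCD 6 were rhythmic (17.6%, against 2.47%), 5 with light-phase peaks, and the smallest adjusted p belonged to Id3 (amplitude 0.47, adjusted p = 0.00369), Id2 (0.28, adjusted p = 0.00639), Pim3 (0.29, adjusted p = 0.00671) and Ccn2 (0.39, adjusted p = 0.012). Id2 and Id3 are inhibitors of helix-loop-helix factors, Hbegf is a ligand of the EGF receptor, and Ccn2, which peaked at ZT18.5, is a matrix-associated growth factor. For light minus dark 3 were called in DCT/CNT (8.82%, against 4.25%), all higher in light (Hbegf, Id3 and Ccn1), and 7 in CCD (20.6%, against 1.59%), 5 higher and 2 lower. With CCD ZT4 pool 2 left out, limma called Id2, Id3, Pim1, Pim3 and Ccn2 rhythmic in CCD, and the 7 CCD calls for light minus dark were lost. The median differences were 0.25 in DCT/CNT and 0.19 in CCD. Among 13 measured of 15 restrainers, Dusp10 was rhythmic in DCT/CNT (0.32, adjusted p = 0.0369, 7.69% of the list against 6.57% of all genes) and Spry1, an inhibitor of receptor tyrosine kinase signalling, was higher in light there, by 0.60 (adjusted p = 0.0482), while 0 were called by limma in CCD.

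Responses to protein damage and to corticosteroids were set beside these. Of 17 measured heat shock genes, 6 were called lower in light in DCT/CNT (35.3%, against 1.59% of all genes) and 3 in CCD (17.6%, against 0.726%), among them Hsph1 (-0.72 in DCT/CNT, adjusted p = 0.000458, and -0.60 in CCD) and Hspa5 (-0.59 in DCT/CNT and -0.56 in CCD). Hsph1 and Hspa5 kept their CCD calls without CCD ZT4 pool 2 (-0.62 and -0.58). Their list mean ran from 10.42 to 10.63 on light arrays and from 10.68 to 11.10 on dark arrays in DCT/CNT, while that of the 36 early genes ran from 8.89 to 9.00 in light and from 8.62 to 8.78 in darkness. In CCD the early gene mean ran from 9.32 to 9.91 in light and from 9.15 to 9.32 in darkness. The light extremes were the arrays of ZT4, 9.32 in pool 1 and 9.91 in pool 2. For light minus dark, 3 of 18 glucocorticoid response genes were called in each segment (16.7%). All genes gave 4.25% in DCT/CNT and 1.59% in CCD. In DCT/CNT 1 was higher and 2 lower in light, and in CCD 2 were higher and 1 lower. Tsc22d3, a direct target of the glucocorticoid receptor, was at -0.81 in DCT/CNT and -1.17 in CCD (-1.16 without CCD ZT4 pool 2). Rhythm was called for 9 of these 18 genes in DCT/CNT (50%), 5 with peaks between ZT0 and ZT12. In CCD it was called for 5 (27.8%), 3 with such peaks. Of the 17 heat shock genes, 5 were rhythmic in DCT/CNT (29.4%) and 2 in CCD (11.8%), all with peaks between ZT12 and ZT24. The 36 early genes gave 27.8% and 19.4%, and all genes 6.57% and 2.47%.

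Between light and dark, 0 thick ascending limb, podocyte, endothelial, vascular or fibroblast markers were called by limma in either segment. An unadjusted p under 0.05 was found for 3 fibroblast or vascular markers and 1 podocyte marker in DCT/CNT. In CCD it was found for 1 endothelial and 1 fibroblast or vascular marker. In DCT/CNT the mean of proximal tubule markers ran from 6.47 to 6.62 on light arrays and from 6.98 to 7.61 on dark arrays. Of these, 1 of 10 was called lower (10%, against 1.59% of all genes), as was 1 of 8 principal cell markers (12.5%). An unadjusted p under 0.05 was found for 6 of the 10 and for 3 of the 8. The mean of DCT and CNT markers there ran from 10.43 to 11.36 in light and from 10.43 to 11.79 in darkness. Of these, 0 of 7 were called by limma, with an unadjusted p under 0.05 for 2. The mean of intercalated cell markers in DCT/CNT ran from 11.53 to 11.73 in light and from 11.32 to 11.45 in darkness. Of these, 1 of 7 was called higher (14.3%), with an unadjusted p under 0.05 for 5. The mean of leukocyte markers there ran from 6.87 to 7.22 in light and from 6.58 to 6.89 in darkness. Of these, 1 of 8 was called higher (12.5%), with an unadjusted p under 0.05 for 2. Over all genes, 2.65% were called higher in light in DCT/CNT. In CCD 0 proximal tubule, intercalated cell or DCT and CNT markers were called by limma. An unadjusted p under 0.05 was found there for 4 of 10, 3 of 7 and 2 of 7 of them. In CCD principal cell markers ran from 11.98 to 12.10 in light and from 12.16 to 12.28 in darkness, with 2 of 8 called lower, both calls being lost without CCD ZT4 pool 2, and leukocyte markers from 6.61 to 6.91 in light and from 6.42 to 6.85 in darkness, with 0 called by limma. With all arrays, the 2 principal cell calls in CCD were 25% of that list, against 0.726% of all genes called lower in light there. The leukocyte marker Itgam was dim, at a median of 4.43 in DCT/CNT and 3.10 in CCD. So was the podocyte marker Nphs1, at 4.53 in DCT/CNT and 4.47 in CCD. Others of these lists were brighter, with Ptprc at 8.38 in DCT/CNT and 8.42 in CCD. Cd74 was at 9.19 in DCT/CNT and 9.15 in CCD, and Podxl at 9.16 and 8.89. Rhythm in DCT/CNT was called for 3 of 7 DCT and CNT markers (42.9%), 2 of 10 proximal tubule markers (20%) and 1 of 8 principal cell markers (12.5%). All of these peaked between ZT12 and ZT24. With peaks between ZT0 and ZT12, 1 of 7 intercalated cell markers (14.3%) and 1 of 8 leukocyte markers (12.5%) were called, and all genes gave 6.57%. In CCD 1 DCT and CNT marker and 2 principal cell markers were rhythmic, peaking between ZT12 and ZT24. The part of all these cells in the early gene differences was not tested.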

How the data were processed

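The authors deposited 1 table of log2 RMA values, with 45101 probe sets and 24 arrays. RMA is named in the submitters' processing notes without a version, and whether both segments were normalised in 1 run is not given in the sources used here. Of all probe sets, 34958 named 1 gene symbol, 932 several and 9211 none. Each of the 18194 genes was represented by its brightest single-symbol probe set on average, with no filter on dim genes. Array medians ran from 5.80 to 5.89 in DCT/CNT and from 5.83 to 5.87 in CCD, with interquartile ranges of 3.32 to 3.65 in DCT/CNT and 4.08 to 4.28 in CCD. Precision is limited by the number of arrays. The labels give no batch or date.

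Models were fitted over all genes and arrays with limma 3.58.1 in R 4.3.3. A 24 h cosine and sine per segment (18 residual degrees of freedom) gave the rhythm tests, and 12 group means (12 residual degrees of freedom) gave light minus dark and the segment difference. The Benjamini-Hochberg adjustment ran over the whole gene table, with calls at an adjusted p under 0.05. Scripts were tested on simulated data. SE is that of limma's fit and SD is between arrays.

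Members and lists were chosen with earlier results of these data known. All members are accounted for. Members called in a time test are given by array in the segment of the call, those among the 5 largest segment differences each way by their lowest, median and highest array, and at most 4 genes of each other list are named per comparison, those of smallest adjusted p. The array values of Socs3, the member with the widest spread between pools, and single values of other members not called in a time test were added after they were seen. Alternatives were other normalisations, a filter on dim genes, the mean of all probe sets, array weights, each segment alone, an F test over group means, the pool number as a block, and omission of each array and time.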

Additional observations from a re-analysis of the deposited data

How the results depend on the processing

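Under every alternative run, each called time difference kept its direction. Of 36 members, 10 were rhythmic in DCT/CNT and 7 in CCD. These are counts, and the genes behind them can differ. Array weights gave 4 rhythmic in DCT/CNT, each segment fitted alone 4 in DCT/CNT and 2 in CCD, an F test over group means 4 in DCT/CNT and 2 in CCD (3 and 1 of them among the 10 and 7), and equal array medians 4 in CCD. Without ZT0, ZT4, ZT8, ZT12, ZT16 or ZT20, in that order, 6, 5, 3, 2, 6 and 1 were rhythmic in DCT/CNT and 2, 2, 1, 4, 1 and 1 in CCD. For light minus dark, with 11 and 7 called, array weights gave 3 in DCT/CNT, fits of each segment alone 2 in DCT/CNT and 3 in CCD, and quantile normalisation 4 in CCD. Without 1 array at a time, 4 to 12 were rhythmic in DCT/CNT and 1 to 9 in CCD, light minus dark called 3 to 11 in DCT/CNT and 1 to 9 in CCD, the segment difference 26 to 29, and the rhythm difference 0 to 0.

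Over all genes, 1195 and 449 were rhythmic in DCT/CNT and CCD, and 773 and 290 were called for light minus dark. Array weights gave 788 and 846 for rhythm and 269 and 555 for light minus dark. Fits of each segment alone gave 226 for rhythm and 104 for light minus dark in DCT/CNT, and the F test 450 and 117 for rhythm. Leaving out 1 time gave 565 to 788 in DCT/CNT and 132 to 255 in CCD. Leaving out 1 array gave 242 to 477 for rhythm in CCD, and for light minus dark 375 to 1062 in DCT/CNT and 85 to 304 in CCD. With ZT0 and ZT12 included, an alternative chosen after seeing the data, light minus dark in CCD called 137. The segment difference called 14047 genes, and 7583 among the 10863 genes with a mean of at least 6, where fewer genes were tested. Rhob turned to a segment difference of 0.123 under quantile normalisation and 0.040 among genes with a mean of at least 6, and Jund to -0.003 without the constant. The rhythm difference called 2 genes, and 1 to 5 under the alternatives. The cause of these changes was not tested. No detection calls were used, so how far dim members such as Dusp2, Nr4a3 and, in DCT/CNT, Myc stood above background was not tested.

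The labels number the pools alike, but they do not tie a number to animals. Over all genes, deviations of same-numbered pools correlated between segments at -0.025 to 0.086 over the 6 times, and the numbers were not taken as pairs. Among the 36 members, pool 2 was higher for 27 in DCT/CNT and 28 in CCD at ZT0, and pool 1 for 26 and 27 at ZT8. At ZT4 pool 2 was higher for 14 and 32, at ZT12 for 18 and 18, at ZT16 for 16 and 20, and at ZT20 for 20 and 22. Of all genes, 48.3% and 48.8% were higher in pool 2 at ZT0 and 56.4% and 53.7% at ZT8. At the other times this share was 47% to 53.5%. Like results in the 2 segments may therefore not be independent for these genes, which was not tested. With the replicate block, 10 and 6 members were rhythmic in DCT/CNT and CCD, 10 and 7 were called for light minus dark, 27 for the segment difference and 0 for the rhythm difference.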
